A study of Mus musculus with 6 samples.

Results

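A set of 10 myofibroblast and contractile genes was read out in the renal cortex of injured mouse kidneys: Acta2, Tagln, Cnn1, Myl9, Des, Vim, Fn1, Postn, Pdgfra and Pdgfrb. The genes were chosen by symbol, with earlier results of these data known, and all 10 were found among the 19176 rows of the table. All were measured by strand-specific mRNA sequencing in wild-type C57BL/6J mice, which the methods describe as males aged 8 weeks, on day 14 after the vessels of the left kidney had been clamped and reopened (unilateral ischemia-reperfusion injury, UIRI). The UIRI group (n = 3) received daily intraperitoneal vehicle, and the UIRI + BA group (n = 3) received the compound BA by the same route at 1 mg/kg each day. The labels call BA brucine A and the methods call it bruceine A. By the methods, every mouse also lost its right kidney on the day before the end. Both groups were therefore injured, and no sham kidney was analysed here, so the values say how the genes differed between treated and untreated injury and not how far injury had moved them. The libraries are described as independent biological replicates.

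Myofibroblasts are contractile, matrix-producing cells that accumulate in the interstitium of a scarring kidney. They arise largely from resident fibroblasts and pericytes, which carry the receptors for platelet-derived growth factor (PDGF), and they take up a smooth muscle program built on actin filaments, myosin light chain and actin-binding proteins. Many genes of that program are read through the CArG box, a short promoter element bound by serum response factor (SRF) with its partner myocardin or the related MRTF proteins. Smooth muscle of arteries and arterioles, mesangial cells and pericytes use the same genes in the healthy kidney, so none of the 10 marks a single cell type. In a tissue extract, fewer cells of a type and less RNA per cell cannot be told apart.

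Promoter sequences are shown for the pair of contractile members that held a CArG box or a near match in the window from 250 bases before to 50 bases after the start given by RefSeq (build GRCm38.p6). An exact CArG box was counted on either strand, and so was one with 1 mismatch in its A/T core. The motif CATTCC, bound by TEAD factors, was searched on both strands too. The capitals mark CArG matches and, in Acta2, the CATTCC motif read from the other strand.
Acta2 chr19:34255324-34255623 (minus strand): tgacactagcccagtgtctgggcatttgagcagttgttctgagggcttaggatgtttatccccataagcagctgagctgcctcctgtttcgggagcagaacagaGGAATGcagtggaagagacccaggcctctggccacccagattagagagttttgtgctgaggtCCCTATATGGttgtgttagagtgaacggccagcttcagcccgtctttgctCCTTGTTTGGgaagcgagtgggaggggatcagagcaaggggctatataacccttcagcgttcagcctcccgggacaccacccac
Myl9 chr2:156775214-156775513 (plus strand): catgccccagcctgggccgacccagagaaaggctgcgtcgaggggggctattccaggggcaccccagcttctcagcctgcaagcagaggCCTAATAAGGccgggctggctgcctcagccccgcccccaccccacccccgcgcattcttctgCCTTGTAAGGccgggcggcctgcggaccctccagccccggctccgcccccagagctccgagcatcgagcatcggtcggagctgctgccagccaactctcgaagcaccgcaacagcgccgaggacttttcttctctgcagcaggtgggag
The Myl9 window held 1 exact box, CCTAATAAGG, with its first base at position -161 from the start, and 1 near match, CCTTGTAAGG, at -99. The Acta2 window held no exact box but a pair of near matches, CCCTATATGG at -84 and CCTTGTTTGG at -34, and GGAATG at -146. Of the 32851 mouse promoters of the same length, 1.63% held an exact CArG box, 9.98% held one with up to 1 mismatch and 14.7% held CATTCC on either strand. The windows of Des, Vim, Postn, Pdgfra and Cnn1 held none of these letters. Tagln, Fn1 and Pdgfrb were not matched to a promoter. A match is a description of letters, and binding was not measured.

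All 10 genes had lower fitted levels with BA, and the differences were small: the median log2 fold change of the 10 was -0.26, beside -0.01 over all genes. The lowest fold changes belonged to Postn (-0.68), Myl9 (-0.38) and Fn1 (-0.32), and those of Cnn1 (-0.05) and Tagln (-0.06) lay near 0. Each gene was compared with limma on log2 of the normalized count plus 1, fitted on all rows with Benjamini-Hochberg adjustment, and no gene among the 10 passed an adjusted p of 0.05. The same was true of the whole table (0 genes, 0.0%), where no adjusted p lay under 0.225. Of the 10, 6 were lower with BA at an unadjusted p below 0.05 (Myl9, Des, Vim, Fn1, Pdgfra and Pdgfrb) and 0 were higher. The same threshold was passed in the lower direction by 4.61% of all genes and in either direction by 10.3%. Being lower with BA at any p held for 51.1% of all genes. DESeq2 on the recovered reads put the same 6 members below an unadjusted p of 0.05, against 3.41% of all genes in the lower direction, and 0 members passed its adjusted threshold. edgeR's quasi-likelihood test put 4 members there and 0 past the adjusted threshold. Of the 17155 genes it tested, 1703 had an unadjusted p below 0.05 in either direction.

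**Figure D1:**
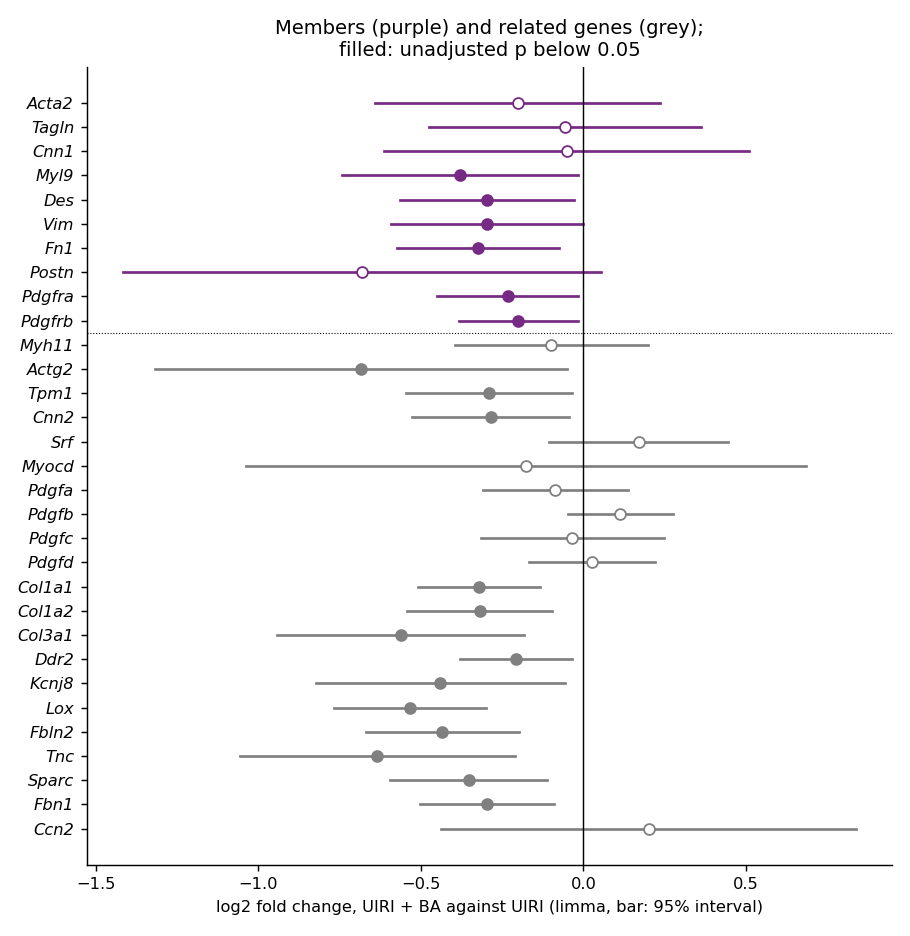
The plot gives the log2 fold change of UIRI + BA against UIRI (horizontal axis, negative values lower with BA) with its 95% interval from limma, for the 10 genes in purple and for related genes in grey, with filled points at an unadjusted p below 0.05. All 10 purple points lie left of 0, and the intervals of Acta2, Tagln, Cnn1 and Postn cross it.

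The levels of the 10 genes spanned a wide range in the injured cortex. Per kilobase of annotated exon, Vim held the highest mean over the 6 libraries, 2092 normalized counts per kb (range 1688 to 2513), followed by Myl9 at 1927 (1271 to 2472), Fn1 at 1517 (1260 to 1821), Acta2 at 1125 (763 to 1396) and Pdgfrb at 918 (809 to 1041). The ranges of neighbours among these 5 overlapped, although Myl9 stood above Fn1 in 6 of 6 libraries and Vim above Myl9 in 4 of 6. Pdgfra followed at 466 (398 to 546), Des at 286 (242 to 347), Postn at 130 (73.0 to 189), Tagln at 36.8 (28.4 to 41.2) and Cnn1 at 15.2 (10.8 to 18.6), and from Pdgfrb downward no 2 neighbours overlapped. Acta2, Tagln and Cnn1 are all classical smooth muscle genes, yet the per-kb levels of Tagln and Cnn1 lay far below that of Acta2. An antisense gene, Gm48529, covers 62.4% of the exon bases of Tagln. How reads there were counted is not given in the sources used here, so the low level of Tagln is uncertain. Annotated exon length counts every transcript of a gene, so the order is approximate for genes with long alternative ends.

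**Figure D2:**
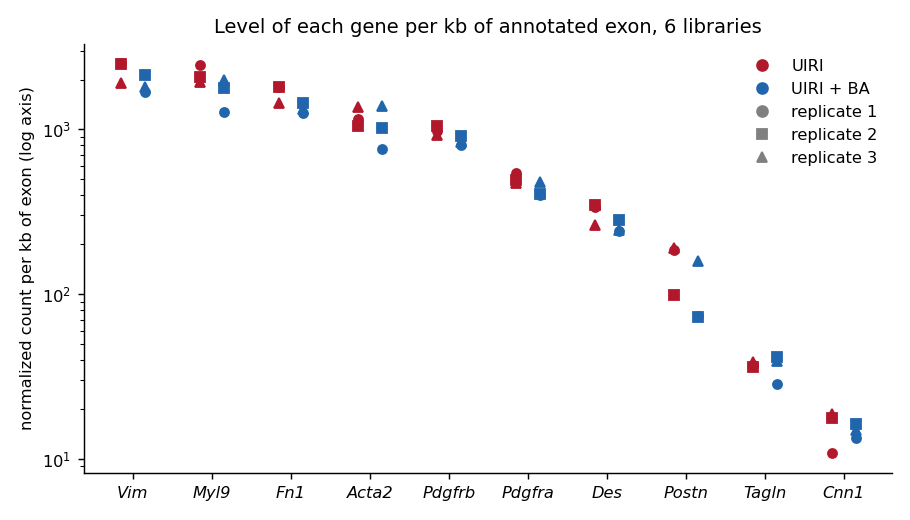
The plot shows each library's normalized count per kilobase of annotated exon on a log axis, with the genes ordered by their mean, UIRI in red, UIRI + BA in blue and the replicate number given by the marker. The order runs from Vim (mean 2092) to Cnn1 (mean 15.2), and the colours overlap in most genes.

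Acta2 encodes alpha smooth muscle actin, the filament protein by which myofibroblasts are usually recognised. It lies on the minus strand at chr19:34241090-34255590 (GRCm38, GENCODE release M21). The UIRI libraries held 2543, 2288 and 3008 normalized counts and the UIRI + BA libraries 1675, 2239 and 3065. The highest and the lowest library of the 6 were both treated, so the groups overlapped over the whole UIRI range. The group means were 2613 ± 365 and 2326 ± 699 (SD, n = 3 each), and the log2 fold change was -0.20 (SE 0.19, 95% interval -0.64 to 0.24, adjusted p = 0.716 in limma). Without UIRI + BA replicate 1 it was 0.01 and without UIRI + BA replicate 3 it was -0.42. How reads shared with other actin genes, such as its close copy Actg2, were counted is not given in the sources used here, so the Acta2 count is uncertain by an amount that was not measured.

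Tagln and Cnn1 encode transgelin (SM22) and calponin 1, actin-binding proteins of the smooth muscle cytoskeleton. Tagln lies at chr9:45929619-45936058 on the minus strand and held 73.6, 72.0 and 76.7 normalized counts in UIRI, against 56.4, 81.8 and 78.3 in UIRI + BA. The treated values surrounded the untreated ones, with a log2 fold change of -0.06 (SE 0.19, adjusted p = 0.925 in limma). The antisense gene Gm48529 covers 62.4% of the exon bases of Tagln and had 52.6 to 123 normalized counts per library itself. The strand setting of the counting is not given in the sources used here, so the Tagln value, its low level included, is uncertain. Cnn1, at chr9:22099216-22109630 on the plus strand, held 29.5, 48.4 and 50.9 in UIRI, against 36.3, 44.2 and 40.7 in UIRI + BA. Its lowest and highest values were both in the untreated group, and its log2 fold change was -0.05 (SE 0.25, adjusted p = 0.951 in limma). At 26 to 140 recovered reads per library, these genes were the shallowest of the set, and the 95% intervals of their fold changes (-0.47 to 0.36 for Tagln, -0.61 to 0.51 for Cnn1) would hold a difference as large as that of Fn1.

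Myl9 encodes the regulatory light chain of smooth muscle and non-muscle myosin, whose phosphorylation sets contraction. It lies at chr2:156775420-156781658 on the plus strand. Its normalized counts were 2872, 2418 and 2266 in UIRI, against 1477, 2077 and 2327 in UIRI + BA. The groups overlapped only through UIRI replicate 3 and UIRI + BA replicate 3. The means were 2519 ± 315 and 1960 ± 437 (SD, n = 3 each). The log2 fold change was -0.38, or 23.2% lower with BA (SE 0.16, 95% interval -0.74 to -0.02, unadjusted p = 0.0420, adjusted p = 0.474 in limma). Without UIRI + BA replicate 1 it was -0.19.

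Des and Vim encode desmin and vimentin, the intermediate filament proteins of muscle, pericytes and mesangium (desmin) and of mesenchymal cells in general (vimentin). Des (chr1:75360329-75368579, plus strand) held 1273, 1301 and 990 normalized counts in UIRI, against 910, 1061 and 917 in UIRI + BA. Vim (chr2:13573927-13582826, plus strand) held 11918, 11907 and 9031 in UIRI, against 8005, 10143 and 8533 in UIRI + BA. In both genes UIRI replicate 3 lay well under the other untreated libraries and inside the treated range. The log2 fold change was -0.30 for Des (SE 0.12, unadjusted p = 0.0338, adjusted p = 0.460 in limma) and also -0.30 for Vim (SE 0.13, unadjusted p = 0.0497, adjusted p = 0.486). The ratio of Vim to Des was nearly constant over the libraries, at 9.36, 9.15 and 9.12 in UIRI, against 8.80, 9.56 and 9.30 in UIRI + BA, so the pair moved together from library to library. The exact two-sided permutation test of that ratio gave p = 1. In a 3 against 3 design this test cannot go below 0.1.

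Fn1 encodes fibronectin, the matrix glycoprotein on which collagen fibrils are assembled. It spans chr1:71585520-71653200 on the minus strand. It held 21066, 21277 and 16898 normalized counts in UIRI, against 14725, 16892 and 15496 in UIRI + BA. The groups did not overlap, but the gap between UIRI replicate 3 and UIRI + BA replicate 2 was only a few counts. The means were 19747 ± 2470 and 15704 ± 1098 (SD, n = 3 each). The log2 fold change was -0.32, or 20.2% lower with BA (SE 0.11, 95% interval -0.57 to -0.08, unadjusted p = 0.0163, adjusted p = 0.403 in limma). This was the smallest p of the 10, and DESeq2 gave an unadjusted p of 0.00447 and an adjusted p of 0.168. Leaving out each library in turn moved the fold change between -0.43 and -0.27.

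Postn encodes periostin, a matricellular protein that activated fibroblasts and repairing tubules secrete. It lies at chr3:54361109-54391037 on the plus strand. Its normalized counts were 1619, 864 and 1649 in UIRI, against 640, 635 and 1377 in UIRI + BA, a 2.60-fold spread over the 6 libraries and the widest of the set. UIRI replicate 2 lay far under the other untreated libraries, and UIRI + BA replicate 3 far over the other treated ones. The log2 fold change of -0.68 therefore carried a wide error (SE 0.33, 95% interval -1.42 to 0.06, adjusted p = 0.515 in limma). It reached -0.99 with UIRI replicate 2 left out and -1.05 with UIRI + BA replicate 3 left out, and lay between -0.53 and -0.49 without any 1 of the other 4 libraries.

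Pdgfra and Pdgfrb encode the PDGF receptors, carried by interstitial fibroblasts (both) and by pericytes and mesangial cells (chiefly the beta form). Pdgfra (chr5:75152292-75198215, plus strand) held 5473, 4941 and 4720 normalized counts in UIRI, against 3986, 4087 and 4822 in UIRI + BA. Pdgfrb (chr18:61045150-61085061, plus strand) held 5345, 5705 and 5082 in UIRI, against 4430, 5021 and 4601 in UIRI + BA. The groups overlapped in Pdgfra through UIRI + BA replicate 3, and in Pdgfrb every treated library lay under every untreated one. The log2 fold changes were -0.23 (SE 0.10, unadjusted p = 0.0380, adjusted p = 0.468 in limma) and -0.20 (SE 0.08, unadjusted p = 0.0356, adjusted p = 0.465), 14.9% and 12.9% lower with BA. Per kilobase the beta receptor stood 1.97 times above the alpha receptor, a figure that rests on annotated exon lengths of 5478 bases for Pdgfrb and 10024 for Pdgfra. The ratio of their normalized counts, Pdgfra over Pdgfrb, ran from 0.814 to 1.05 and its log2 differed by -0.03 between groups (exact two-sided permutation p = 0.8).

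Groups that did not overlap in the lower direction were found in 2 of the 10 genes, Fn1 and Pdgfrb, and in 6.96% of all genes. For both, the exact permutation p was 0.1, the smallest that 3 against 3 allows.

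**Figure D3:**
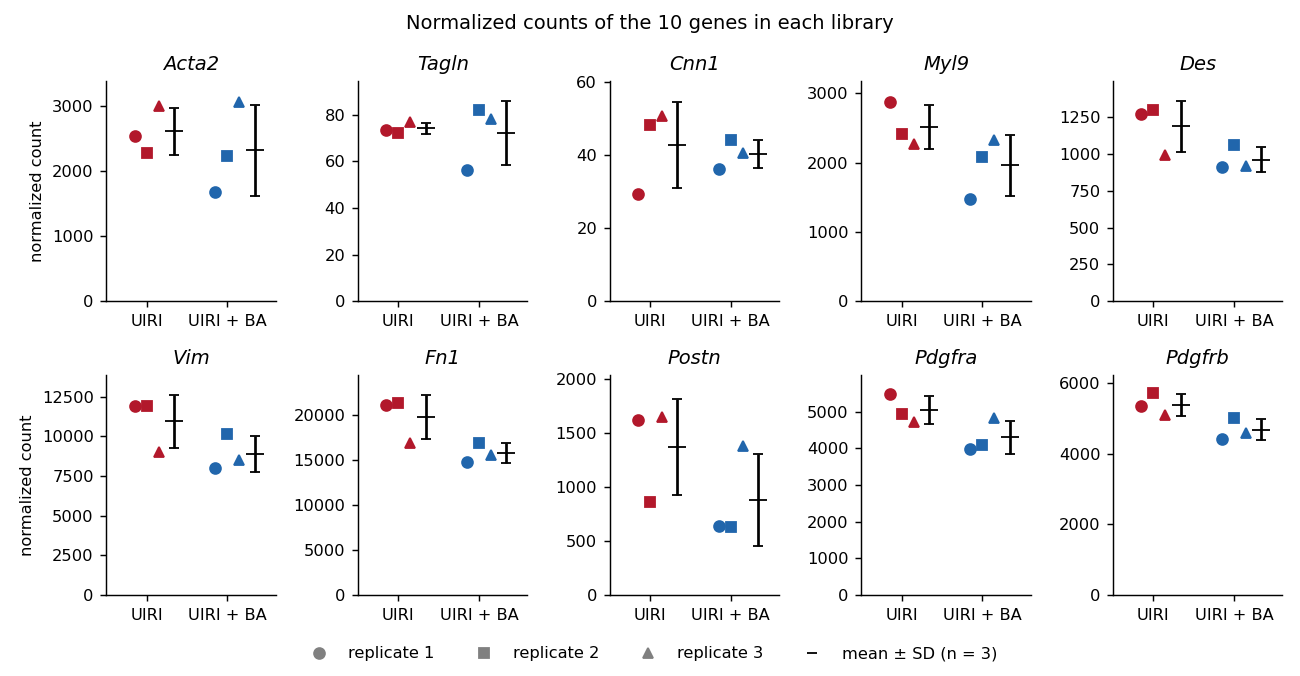
Each panel plots the normalized count of 1 gene on a linear axis from 0, with 1 point per library, the replicate number given by the marker and the mean ± SD (n = 3) beside each group. UIRI + BA replicate 1 is the lowest blue point in most panels, and in Des, Vim and Fn1 the UIRI replicate 3 triangle sits near the treated values.

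The libraries differed among themselves in ways that the groups do not share. UIRI + BA replicate 1 held the lowest value of the 6 libraries in 8 of the 10 genes, all but Cnn1 and Postn. Centred on each gene's mean, the median log2 level of the 10 stood at 0.25, 0.16 and 0.03 in the untreated replicates 1, 2 and 3, against -0.27, -0.03 and 0.02 in the treated ones. UIRI replicate 3 thus lay beside UIRI + BA replicates 2 and 3. It was also the deepest library: recovered reads on genes ranged from 16510720 to 38124164, and it held 2.04 times the median of the other 5. Without UIRI replicate 3, limma put Des, Fn1 and Vim under an adjusted p of 0.05 (3 of 10, beside 1.79% of all genes in the lower direction), with log2 fold changes of -0.42, -0.43 and -0.43. Without UIRI + BA replicate 1 or without UIRI replicate 1, 0 members kept an unadjusted p below 0.05, and without UIRI replicate 2 only Postn had one. Of all 19176 genes, 1270, 808 and 1339 had one in these fits, in that order and in either direction. With all 6 libraries 1971 had one. Without UIRI + BA replicate 1, Acta2, Tagln and Cnn1 had fold changes above 0. The part of depth in these differences was not tested.

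**Figure D4:**
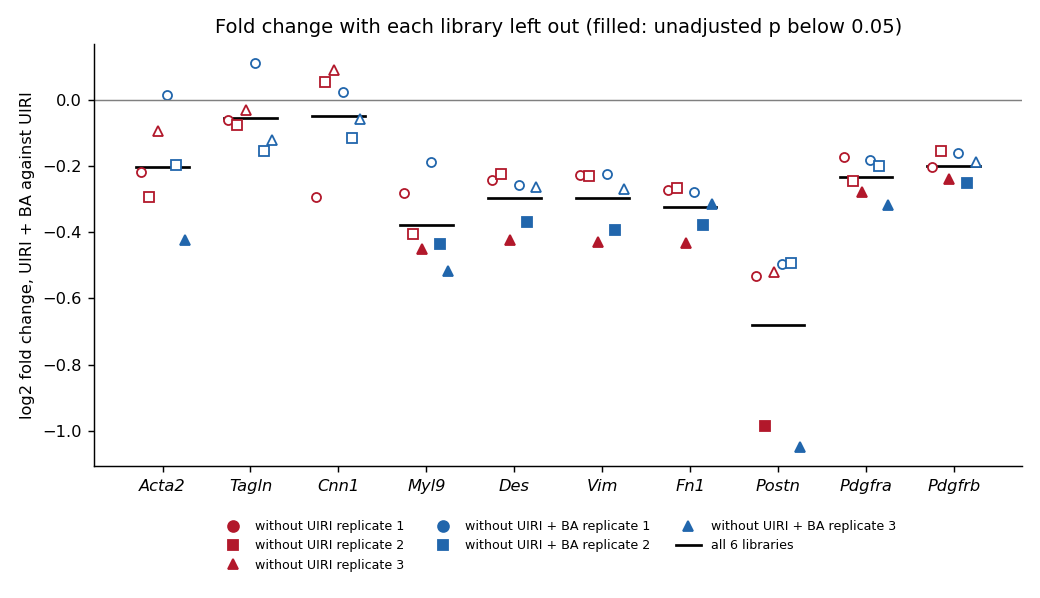
The plot shows the log2 fold change of each gene over all 6 libraries (black line) and after leaving out each library (markers, red for UIRI and blue for UIRI + BA), with filled markers at an unadjusted p below 0.05. Markers above 0 occur in Acta2, Tagln and Cnn1, and Postn has the widest scatter, from -1.05 to -0.49.

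The remaining smooth muscle contractile genes were split in direction. Of 22 on the list, 3 were lower (beside 4.61% of all genes) and 0 higher at an unadjusted p below 0.05. At any p 12 were lower, and the median log2 fold change was -0.02. The 3 were Actg2 (gamma smooth muscle actin, -0.68, from a mean of 33.6 to 20.3 normalized counts), Tpm1 (tropomyosin 1, -0.29) and Cnn2 (calponin 2, -0.29). When replicate 1 of either group was dropped, 0 of the 22 passed, and when UIRI replicate 3 was dropped, 4 were lower and 2 higher, and Vcl (vinculin) was higher at an adjusted p below 0.05. That fit put 25.2% of all genes under the unadjusted and 5.02% under the adjusted threshold, so these counts lie near the background. Myh11, the heavy chain of smooth muscle myosin and the most specific gene of contractile smooth muscle, held 296, 386 and 376 normalized counts in UIRI, against 304, 365 and 314 in UIRI + BA, with a fitted log2 difference of -0.10 (adjusted p = 0.796 in limma). The ratio of Acta2 to Myh11 ranged from 5.50 to 9.76 over the libraries, with both ends in the treated group (exact two-sided permutation p = 0.9).

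The factors that read the CArG box and CATTCC motifs printed above showed no difference past the threshold. Of 11 SRF and Hippo pathway genes, 0 had an unadjusted p below 0.05 in either direction, and the median log2 fold change was 0.05. Srf held 414, 417 and 530 normalized counts in UIRI, against 475, 491 and 559 in UIRI + BA (log2 fold change 0.17, adjusted p = 0.630 in limma). Myocd, which encodes myocardin, held only 4.31 to 6.80 normalized counts per library, too few to show a difference of the size seen in Myl9. Among 8 measured relatives of the actin, myosin light chain and intermediate filament members, 0 passed and 6 were lower (median -0.15), with Acta1 not found in the table. Without UIRI replicate 3, 2 of those relatives were lower and 2 of the SRF and Hippo genes higher at an unadjusted p below 0.05, in a fit that put 25.2% of all genes there.

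The ligands of the PDGF receptors differed little between groups. Pdgfa had a log2 fold change of -0.09, Pdgfb of 0.11, Pdgfc of -0.03 and Pdgfd of 0.03. With the receptor-like gene Pdgfrl (-0.48) they made a list of 5, of which 0 had an unadjusted p below 0.05, and Pdgfrl did when UIRI + BA replicate 3 was left out. Pdgfb, a ligand that endothelial cells use to hold pericytes, held 2260, 2370 and 2462 normalized counts in UIRI, against 2517, 2660 and 2495 in UIRI + BA. Every treated value lay above every untreated one, by a small margin (95% interval of the log2 fold change -0.05 to 0.28).

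Lists of fibroblast identity genes and of the matrix that fibroblasts lay down were read beside the members. Of 23 fibroblast and pericyte genes, 6 were lower (beside 4.61% of all genes) and 0 higher at an unadjusted p below 0.05. The median log2 fold change of the list was -0.26. Col1a1, a chain of type I collagen, held 17083, 15718 and 15382 normalized counts in UIRI, against 12658, 12344 and 13545 in UIRI + BA (log2 fold change -0.32, SE 0.08, adjusted p = 0.291 in limma), with no overlap. Its partner chain Col1a2 had a fold change of -0.32. Col3a1, the chain of type III collagen, held 46022, 34494 and 39081 in UIRI, against 22478, 24888 and 34434 in UIRI + BA (-0.56, SE 0.17, adjusted p = 0.354). The collagen receptor Ddr2 (-0.21) and the pericyte potassium channel Kcnj8 (-0.44) were the next by p. At any p, 20 of the 23 were lower and 3 higher. The pericyte genes Rgs5 (0.16) and Cspg4 (0.16), which were picked here after their values were seen, were among those 3. Leaving out single libraries gave 3 to 9 genes of the list in place of 6, with 3 when replicate 1 of either group was dropped and 9 when replicate 3 of either group was dropped. The counts are of lower genes, and with UIRI replicate 2 dropped 2 genes were higher as well, Rgs5 and Cspg4. DESeq2 on all 6 libraries put 2 genes of the list past an adjusted p of 0.05, both lower: Col1a1 (adjusted p = 0.0335) and Col3a1 (adjusted p = 0.04998), beside 1.11% of all genes in either direction. In limma with UIRI replicate 3 dropped, Col1a1 and Mfap4 were lower at an adjusted p below 0.05, beside 1.79% of all genes in the lower direction. That fit put 25.2% of all genes under the unadjusted threshold in either direction.

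Of 22 matricellular and matrix assembly genes, the partners of Fn1 and Postn, 9 were lower and 0 higher at an unadjusted p below 0.05. Of all genes 4.61% were lower at that p, and the median log2 fold change of the list was -0.15. Lox, the enzyme that crosslinks collagen and elastin, held 4840, 3793 and 4543 normalized counts in UIRI, against 2929, 2866 and 3276 in UIRI + BA. These groups did not overlap, with a log2 fold change of -0.53 (SE 0.10, unadjusted p = 0.000562, adjusted p = 0.225 in limma). Fbln2 (fibulin 2, -0.43), Tnc (tenascin C, -0.63), Sparc (osteonectin, -0.35) and Fbn1 (fibrillin 1, -0.30) followed. Ccn2, a matricellular gene induced by TGF-beta and by YAP, held 4538, 4203 and 8842 in UIRI, against 4712, 6563 and 8281 in UIRI + BA, with a fitted log2 difference of 0.20 (adjusted p = 0.807). DESeq2 on all 6 libraries put Lox (adjusted p = 0.00289) and Tnc (adjusted p = 0.0405) past its threshold, both lower. It put 1.11% of all genes there in either direction. Leaving out single libraries gave 5 genes of this list without UIRI + BA replicate 1, all lower, and 18 without UIRI replicate 3, of which 13 were lower and 5 higher, Ccn1 and Ccn2 among them. Ccn2 then had a log2 fold change of 0.54. In that fit, Sparc, Lox, Eln and Timp1 were lower and Ccn1 was higher at an adjusted p below 0.05, most of them named for that reason alone. It put 25.2% of all genes under the unadjusted and 5.02% under the adjusted threshold, in either direction.

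The profiles of Acta2 and Fn1 over the 6 libraries were unlike each other. The ratio of Fn1 to Acta2 ran from 5.06 to 9.30, and its log2 differed by -0.12 between groups (exact two-sided permutation p = 0.6). Among 4889 genes that varied enough to be compared, the closest to Acta2 were Naalad2 (root mean square difference of centred log2 values 0.06 over 6 libraries), D430019H16Rik (0.09), Kcnab1 (0.11), Gja5 (0.12) and Palmd (0.12). Tagln (0.19) and Myl9 (0.22) were the closest of the other members. Among 8089 such genes for Fn1, the closest were Marcksl1, Des, Bmp1, P2ry6 and Itgam, at 0.03 to 0.04, so another member ranked in the first 5. Itgam, an integrin of macrophages and other myeloid cells, held 1892, 1854 and 1467 normalized counts in UIRI, against 1343, 1491 and 1310 in UIRI + BA. These likenesses rest on 6 libraries and share their depth and scaling, and they are given as a description only.

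The study also measured Acta2 and Fn1 by RT-qPCR, not analysed here, and the primers show which piece of each transcript that assay reads beside the gene counts.
Acta2 forward: ctgacagaggcaccactgaa
Acta2 reverse: catctccagagtccagcaca
Fn1 forward: atgtggacccctcctgatagt
Fn1 reverse: gcccagtgatttcagcaaagg
In GENCODE release M21 the Acta2 primers enclose 160 bases of coding sequence from exon 4 to exon 6 (chr19:34246216-34248474) and match both of its 2 coding transcripts. The Fn1 primers enclose 124 bases of coding sequence inside exon 19 (chr1:71626061-71626184) and match 7 of its 9 coding transcripts. Each pair matched the transcripts of 1 gene only. The normalized counts above cover all annotated exons of a gene and do not separate its transcripts.

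Markers of other cell types differed between the groups too, and their values stand beside the members for that reason. At an unadjusted p below 0.05 in limma, 10.3% of all genes passed in either direction and 4.61% in the lower direction. Of 15 proximal tubule markers, 14 were higher with BA at an unadjusted p below 0.05, all 15 were higher at any p, and the median log2 fold change was 0.70. Their summed level was 66571 to 87390 normalized counts in UIRI, against 96324 to 156180 in UIRI + BA. Of 11 macrophage markers, 3 were lower at an unadjusted p below 0.05 and all 11 at any p (median -0.26, summed level 101202 to 142605 against 96236 to 111322). The count of 3 was 5 with edgeR, 7 with upper quartile scaling, and 8 with DESeq2 or with the replicate number as a term (replicate block). Of 6 mesangial and juxtaglomerular markers, 2 were lower (median -0.15, summed level 12908 to 15851 against 10442 to 12838). Of 10 urothelial markers, 1 was lower at an unadjusted p below 0.05 and all 10 at any p, with a median of -1.31. Their summed level was 2984 to 3796 against 2647 to 2908. Over only those that reached 1 in every library the median was -0.88, and it was -0.94 with DESeq2 and -0.83 with edgeR. The urothelial median was -0.77, with 8 of 10 lower, when UIRI replicate 3 was left out and -2.06, with 7 at an unadjusted p below 0.05, when UIRI + BA replicate 3 was left out, and the replicate block also gave 7. Injured tubule markers went both ways (2 lower and 3 higher of 12, median 0.10), 1 of 6 podocyte markers was lower (median -0.10), and 0 of 8 endothelial markers passed (median -0.06). Of the skeletal muscle list 3 of 8 genes and of the adipose list 1 of 5 were in the table, and 0 of them passed, and neither did any of 5 plasma and B cell or 6 proliferation genes. Skeletal muscle genes summed to 104 to 137 normalized counts per library, and Acta1, Ckm, Myh1, Myh2 and Myh4 were not found, nor were Adipoq, Plin1, Cidec and Lep of the adipose list. DESeq2 put 8 proximal tubule markers past an adjusted p of 0.05, all higher, beside 1.11% of all genes in either direction. In limma without UIRI replicate 3, 13 proximal tubule markers were higher and 5 macrophage and 2 mesangial markers were lower at an adjusted p below 0.05. Of the 12 injured tubule markers, counted in either direction, 3 passed the adjusted threshold with DESeq2 and 4 in that limma fit. That fit put 5.02% of all genes under the adjusted and 25.2% under the unadjusted threshold, in either direction. Without any 1 library, the count of proximal tubule markers higher at an unadjusted p below 0.05 ran from 10 to 14, and that of lower macrophage markers from 0 (UIRI replicate 1 left out) to 11 (UIRI replicate 3 left out). Macrophage levels were highest in UIRI replicates 1 and 2 and near the treated values in UIRI replicate 3, as were those of Des, Vim and Fn1. The part of tissue composition in the values of the 10 genes was not tested.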

How the data were processed

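Renal cortex RNA was sequenced in 6 libraries, UIRI (n = 3) and UIRI + BA (n = 3, 1 mg/kg each day, day 14), grouped by their labels. By the methods, the authors used HISAT2 to align filtered paired-end reads, FeatureCounts to count them and DESeq2 to test them. The genome build, annotation and strand setting are not given in the sources used here. The deposited table gives each gene a signal in each library, namely its read count after division by the library's size factor, and 100% of the values became whole reads within a tolerance of 0.1. It gives gene symbols, 98.19% of which were matched to GENCODE release M21. The authors' log2 fold change, p-value and adjusted p-value in the deposited table were not used. Deposited enrichment tables, with a count, a ratio and a p-value for each term, were not used either. The smallest sum of reads of a listed gene was 10, so rarer transcripts could not be read. Columns of values per library that went unused numbered 0.

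All rows were fitted with limma 3.58.1 (R 4.3.3, intensity trend, no covariate) on log2 of the normalized count plus 1, with Benjamini-Hochberg adjustment, and single values with an exact two-sided permutation test (scipy 1.17.1). DESeq2 1.42.0 and edgeR 4.0.16 (17155 genes tested) were run on recovered reads. The scripts were tested on simulated data. Depth was 16510720 to 38124164 reads on genes. The shallowest member had 26 reads in a library, and without Tagln and Cnn1 the lowest was 511.

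The 10 genes, 6 related lists and 11 marker lists were chosen with earlier results of these data known. Named beside the members were, in each related list, at most the 5 genes with the smallest unadjusted p below 0.05, plus Myh11, Srf, Myocd, Col1a1, Col3a1, Ccn2, Pdgfa, Pdgfb, Pdgfc and Pdgfd. The 5 genes most like Acta2 and Fn1 had a mean of at least 100. Gm48529, Rgs5, Cspg4, Pdgfrl, genes named only for a fit without 1 library and genes named as absent were added after their values were seen.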

Additional observations from a re-analysis of the deposited data

How the results depend on the processing

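The count of members lower at an unadjusted p below 0.05 was 6 in limma and 6 with DESeq2, a pseudocount of 0.1, upper quartile scaling or only genes that reached 1 everywhere. It was 5 with quantile normalization or a mean of at least 10, 4 with edgeR's quasi-likelihood test and 1 (Fn1) without the intensity trend, the step that moved it most. Leaving out 1 library gave 0 to 6. It was 0 without UIRI replicate 1 or UIRI + BA replicate 1, and 1 without UIRI replicate 2. The whole table moved too: 1971 of 19176 genes passed in either direction in limma and 1696 without the intensity trend. Without UIRI replicate 1 it was 808 genes, without UIRI + BA replicate 1 1270, without UIRI replicate 2 1339 and without UIRI replicate 3 4838. The count of members at an adjusted p below 0.05 was 0 throughout, except 3 without UIRI replicate 3, so the range without 1 library was 0 to 3. The number of members lower at any p was 10 with every other setting and 7 to 10 without 1 library. The fold changes that crossed 0 without 1 library were those of Acta2 (-0.42 to 0.0128), Tagln (-0.15 to 0.11) and Cnn1 (-0.30 to 0.0899, with 0.02 without UIRI + BA replicate 1 and 0.05 without UIRI replicate 2). Of 150 refits of a member over 15 alternatives, 109 kept their direction and side of an unadjusted p of 0.05, 32 lost it, 4 gained it and 5 changed sign. All 32 losses fell on the 6 members under that p in the main fit, since only those could lose it. DESeq2 placed 213 genes of the whole table under an adjusted p of 0.05 and none of the members. The cause of these shifts was not tested.

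With the replicate number as a replicate block, 6 members (Myl9, Des, Fn1, Postn, Vim and Pdgfrb) had an unadjusted p below 0.05. In that fit 2106 of all 19176 genes had one, in either direction. Of the members 0 passed the adjusted threshold, and 6 genes of the whole table did. Same-numbered libraries correlated at -0.24, 0.30 and 0.15 in their deviations from the group means, so the numbers were not taken to pair the libraries. Among the UIRI libraries, only replicate 2 correlated best with the treated library of its own number. The 95% intervals of Acta2, Cnn1 and Tagln hold differences as large as that of Fn1, and how much of their width comes from depth was not tested.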
